A study of Mus musculus with 2 samples.

Results

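Interleukin 33 and its relatives were followed in nuclei of mouse cortex as 7 genes, Il33, Il1rl1, Il1r1, Il1rap, Il1rapl1, Il1rapl2 and Il18, of 30905 in the table. They were taken by symbol, and each symbol matched 1 row. They were chosen by measured values in part, namely the UMI counts of Il33 in oligodendrocytes, which differ between the 2 sets of barcodes described next. Those Il33 values are therefore given as a description.

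The nuclei came from frozen cortex of untreated wild-type C57BL/6 mice on a normal diet, aged 18 months in 1 group and 2 months in the other per the sample labels, with 3 mice pooled in each group. Elsewhere the submitters write 18 to 22 and 2 to 3 months. Chromium droplets (10x Genomics) were used, in which every RNA copy receives a molecular barcode, the UMI, so that copies can be counted. Both groups were deposited in 1 matrix whose barcodes end in 1 of 2 suffixes, called library 1 and library 2 here. Which suffix belongs to which age is not given in the labels, so no age comparison was made. Pooling leaves no replicates, so both libraries' values are given without a test. Levels are counts per 1000000 UMIs of a class (CPM) with exact 95% Poisson intervals, and shares carry exact 95% Clopper-Pearson intervals. Both cover counting error only.

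The libraries held 58108297 and 60547146 UMIs, with a median of 5992 and 6450 per barcode, and shared 19 barcode sequences. After filtering, 8286 and 7954 nuclei remained in 33 clusters. Marker genes gave 10 classes large enough to compare (50 or more nuclei per library), and 7 clusters stayed unnamed. Class names rest on markers alone, so oligodendrocytes, for example, means oligodendrocyte-like nuclei. The kept nuclei held 1316 UMIs of Il33, 18 of Il1rl1, 1520 of Il1r1, 20775 of Il1rap, 296465 of Il1rapl1, 46628 of Il1rapl2 and 1669 of Il18.

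IL-33 is an alarmin, a cytokine stored in the nucleus and released when cells are damaged or stressed. Outside the cell it binds ST2, the product of Il1rl1, which pairs with the shared co-receptor IL1RAP. IL-1 alpha and IL-1 beta use the same co-receptor with IL1R1 and signal through MyD88, IRAK kinases, TRAF6 and NF-kappaB. IL-18 is made as a precursor that caspase-1 cleaves, and it has receptors of its own. IL1RAPL1 and IL1RAPL2 have the fold of the family but are best known in neurons, where IL1RAPL1 organises synapses together with the receptor phosphatase PTPRD.

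In the GENCODE vM21 annotation of the mouse build mm10, Il33 spans chromosome 19 from 29925114 to 29960718 on the plus strand. Il1r1 (chromosome 1, 40225080 to 40317257) and Il1rl1 (chromosome 1, 40429570 to 40465415) lie in order on the plus strand. Il18 is on chromosome 9 (50554827 to 50581840), Il1rap on chromosome 16 (26581704 to 26730117) and Il1rapl2 on chromosome X (137570608 to 138846946), all on the plus strand. Il1rapl1 is on chromosome X (86740870 to 88115645) on the minus strand. The last pair of X-linked genes is much longer than the rest, 1.37 Mb for Il1rapl1 and 1.28 Mb for Il1rapl2 against 27.0 to 148 kb. Nuclear RNA is rich in unspliced transcripts and long genes collect more of it, so classes are compared within a gene and not genes with each other. Other genes overlap Il1r1 on the same strand (1), Il1rap on the opposite strand (1), Il18 on the opposite strand (2, Bco2 and Tex12), Il1rapl1 on the same (4) and the opposite (1) strand, and Il1rapl2 on the opposite strand (9). How the counting used strand is not given in the sources used here, so these levels may include reads of overlapping genes. Il33 and Il1rl1 overlap no other annotated gene.

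RefSeq lists 2 starts for Il33, and its promoter table (build GRCm38.p6) held rows for all 7 genes. The 250 bases before each Il33 start are shown because the Il33 values below could come from either, and counts per gene do not tell which start was used. Both windows were searched on both strands for TATAAA, the core of a TATA box, and for ACAAAG, a core letter string of SOX factor motifs, which do not overlap each other. Capitals mark TATAAA, which occurs 1 time in each window and in 12.3% of 32536 such windows of all genes. In the first window it lies toward the end far from the start, and in the second close to the start. Whether either match serves as a TATA box was not tested. ACAAAG is in neither window and in 16.5% of all windows. The first covers chr19:29924863-29925112 and the second chr19:29945540-29945789, both on the plus strand.
Il33 first start: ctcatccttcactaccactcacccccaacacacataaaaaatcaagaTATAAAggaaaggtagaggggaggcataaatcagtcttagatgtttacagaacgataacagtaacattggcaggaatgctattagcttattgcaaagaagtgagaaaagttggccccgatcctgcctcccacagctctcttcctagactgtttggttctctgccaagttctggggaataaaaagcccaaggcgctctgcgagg
Il33 second start: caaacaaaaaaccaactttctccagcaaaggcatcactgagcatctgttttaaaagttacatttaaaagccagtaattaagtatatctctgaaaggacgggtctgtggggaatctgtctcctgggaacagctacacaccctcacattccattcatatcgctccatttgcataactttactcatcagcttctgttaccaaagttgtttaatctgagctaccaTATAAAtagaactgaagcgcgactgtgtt

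Il33 was highest in oligodendrocytes, the cells that make myelin, and lower but present in astrocytes. In oligodendrocytes it reached 331 CPM (580 UMIs, interval 305 to 359) in the 892 nuclei of library 1. The 375 nuclei of library 2 had 96.5 CPM (92 UMIs, interval 77.8 to 118), so the intervals were apart. The name of this cluster was a close call, because its median UMIs were 0.31 and 0.368 of the medians of all kept nuclei of their library and none of its own markers was among its 10 leading genes. In astrocytes it stood at 42.7 CPM (31.7 to 56.3) and 46.3 CPM (35.3 to 59.6), where the libraries overlapped. Fibroblasts followed in library 1 with 18.8 CPM (9.73 to 32.9) and had 12.8 CPM (6.37 to 22.8) in library 2. Oligodendrocyte precursors had 13.2 and 16.2 CPM, microglia 10.3 and 13.5 CPM and endothelial cells 5.27 and 9.35 CPM. Excitatory neurons held 4.83 CPM (4.13 to 5.62) and 3.68 CPM (3.11 to 4.34), so the oligodendrocyte level stood well above the neuronal one in both libraries. In library 2 both the gap from oligodendrocytes to astrocytes and the gap from astrocytes to precursors exceeded the intervals. In library 1 the astrocyte and fibroblast intervals overlapped, and below them neighbouring classes did not differ beyond their intervals.

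**Figure D1:**
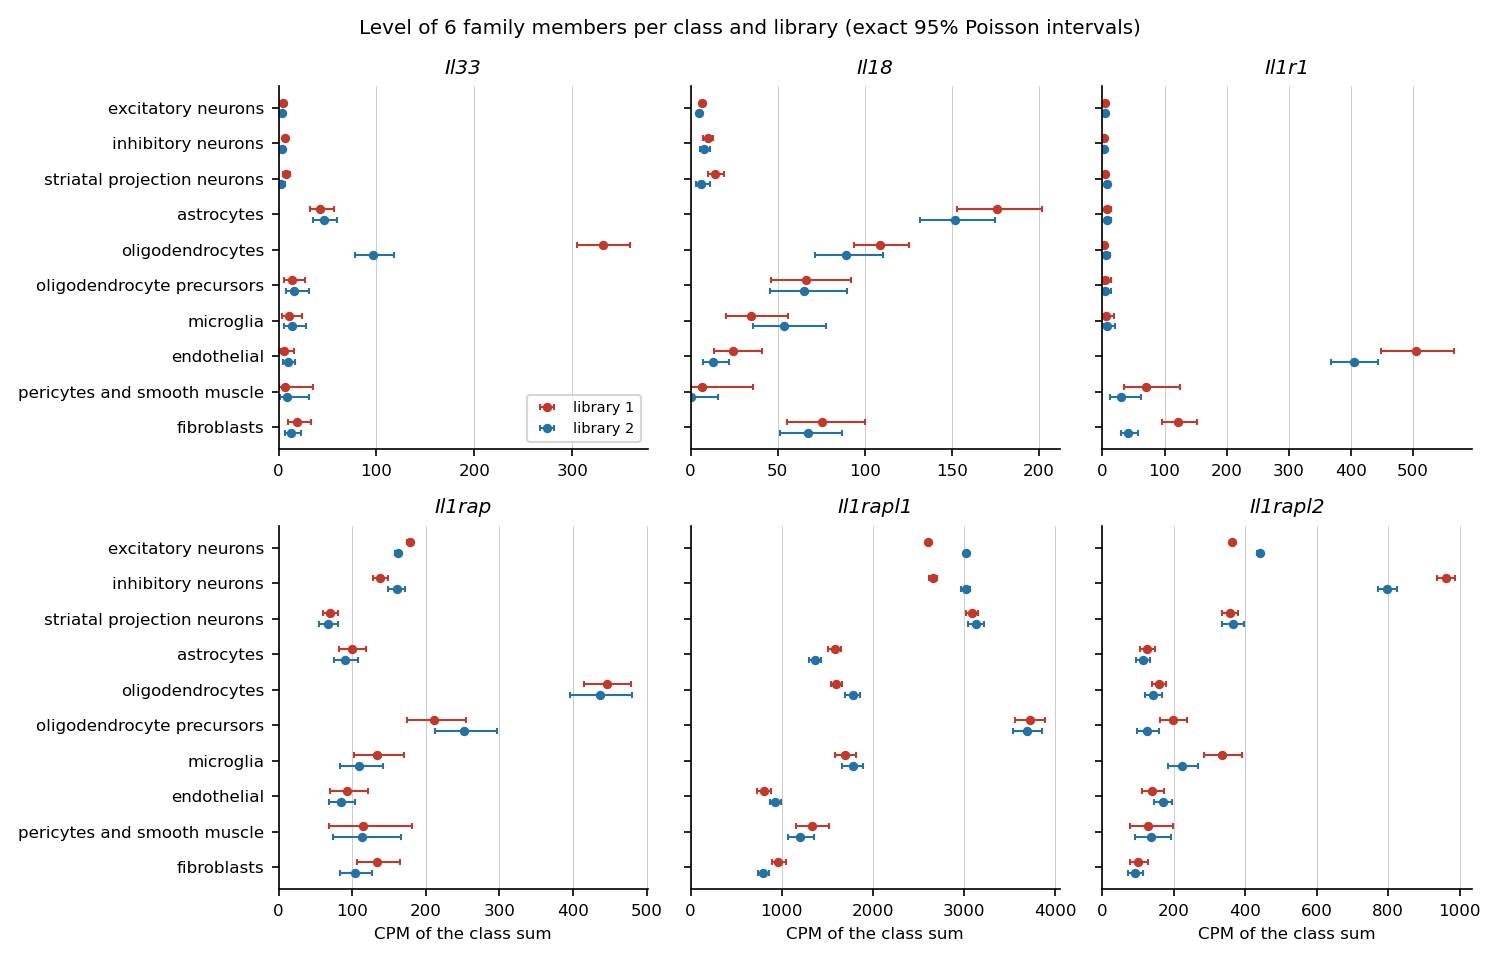
Level of 6 members in CPM of the class sum (horizontal axis, linear, a scale of its own for each gene) in the 10 compared classes, with library 1 in red and library 2 in blue and exact 95% Poisson intervals as bars. Il33 is separated by library in oligodendrocytes (331 against 96.5 CPM), Il1r1 stands out in endothelial cells (505 and 405 CPM), and Il1rapl1 is highest in oligodendrocyte precursors (3721 and 3693 CPM).

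Counted per nucleus, Il33 was found in 365 of 892 oligodendrocytes of library 1 (40.9%, 37.7 to 44.2) and in 63 of 375 of library 2 (16.8%, 13.2 to 20.98). Oligodendrocytes of library 1 were the shallower ones, with a median of 1876.5 UMIs against 2385. After thinning every nucleus to 1500 UMIs, which left out 115 and 7 nuclei, the shares were 35.1% (31.8 to 38.6) and 12.2% (9.06 to 16.0). Free RNA in droplets sets a floor for such shares. Excitatory neurons, whose CPM is given above, showed an Il33 UMI in 3.501% and 2.78% of nuclei at median depths of 7548 and 7913.5 UMIs, and in 1.06% and 0.864% after thinning. Astrocytes lay between, at 7.48% (5.17 to 10.4) and 6.84% (4.63 to 9.68) after thinning. The shallow excitatory cluster 3, with median depths of 2106.5 and 2397 UMIs, had 18.9 CPM (11.7 to 28.8) and 14.6 CPM (9.44 to 21.5) of Il33. In both libraries these intervals overlapped those of fibroblasts, precursors, microglia and endothelial cells. Whether those 4 classes hold Il33 above free RNA was not tested.

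The oligodendrocyte signal was spread over many nuclei. In library 1, 236 nuclei held 1 Il33 UMI, 119 held 2 to 4, 10 held 5 or more and the highest held 7, and the top 5 nuclei held 5.34% of the Il33 UMIs. In library 2, 45 nuclei held 1, 17 held 2 to 4 and 1 held 6, and the top 5 held 21.7%.

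The ratio of the libraries was 3.43 for Il33. Of 10301 genes with 20 or more UMIs in oligodendrocytes, 681 (6.61%) were at least 2-fold higher in library 1 and 335 (3.25%) at least 2-fold higher in library 2. The median gene was itself 0.17 higher in library 1 on the log2 scale, and centred on it the Il33 ratio was 3.05, with 446 genes past 2-fold in library 1 and 465 in library 2. The other 4 members tested in this class did not pass 2-fold. Il1rap stood at 446 and 436 CPM, Il18 at 109 and 89.2, Il1rapl1 at 1597 and 1776 and Il1rapl2 at 158 and 142.

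**Figure D2:**
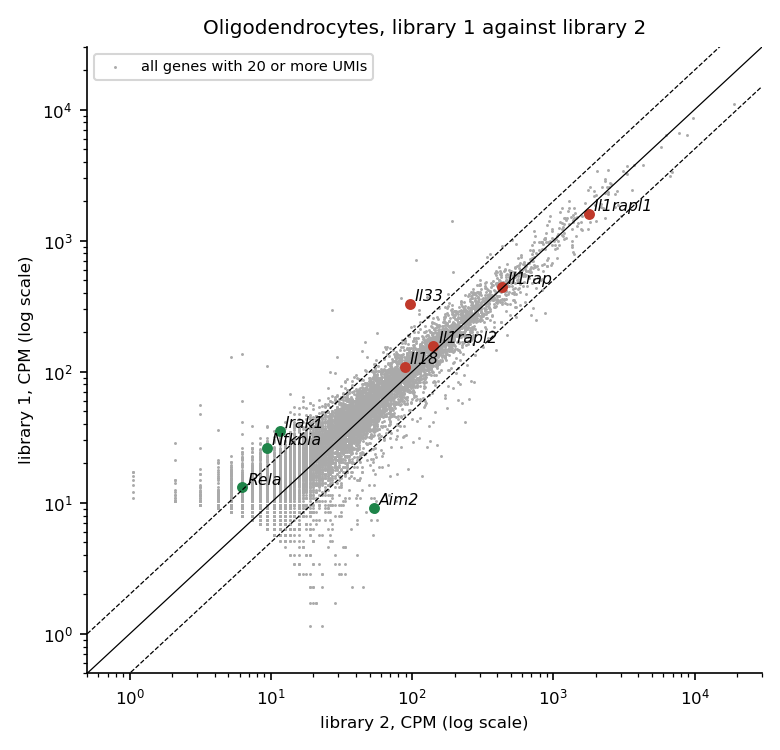
CPM in oligodendrocytes of library 2 (horizontal, log scale) against library 1 (vertical, log scale) for each gene with at least 20 UMIs in the class and a UMI in each library. Red points are members and green points other pathway genes past 2-fold, the solid line is equality and the dashed lines 2-fold. Il33 lies above the upper dashed line, while Il18, Il1rap, Il1rapl1 and Il1rapl2 lie near equality.

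The class differed between libraries in its marker levels and in its share of kept nuclei. The 6 oligodendrocyte markers, which encode myelin proteins and their partners, were all detected in both and summed to 7592 CPM in library 1 and 12918 CPM in library 2. Mog, a protein of the outer myelin surface, stood at 340 and 628 CPM and Mobp at 999 and 1075 CPM, so Il33 and the marker sum lay in opposite order. Oligodendrocytes were 10.8% of kept nuclei in library 1 and 4.71% in library 2. Markers of astrocytes, the class ranked second for Il33, summed to 459 and 483 CPM with 6 of 6 detected in each library. The 5 measured markers of newly formed oligodendrocytes summed to 609 and 792 CPM. Inhibitory neuron markers summed to 1864 and 2590 CPM and excitatory ones to 1228 and 1206 CPM in this class. Whether these sums are RNA of neurons or the class's own expression of listed genes was not tested. The part of depth, of the marker difference and of these other cells in the Il33 difference was not tested.

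Finer clustering of all nuclei (Leiden resolution 2) placed most of the class in 2 clusters, A with 869 nuclei of library 1 and 39 of library 2, and B with 26 and 383. Of these nuclei 868 and 39 in A belonged to the class, and 24 and 333 in B, so B also took in nuclei from outside the class, most of them from library 2. The values of A and B include such nuclei. A was mostly library 1 and B mostly library 2. Nuclei in A had 337 CPM of Il33 (310 to 366) when from library 1 and 47.1 CPM (4 UMIs, 12.8 to 121) when from library 2. Those in B had 146 CPM (10 UMIs, 70.2 to 269) and 86.2 CPM (93 UMIs, 69.6 to 106). In A the libraries stayed apart, in B their intervals overlapped, and the arms with 39 and 26 nuclei carry few UMIs. Cluster 32, which had both mature and newly formed oligodendrocyte markers and stayed unnamed, held 5 and 92 nuclei and 0 and 6 Il33 UMIs, 13.1 CPM (4.81 to 28.5) in library 2.

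**Figure D3:**
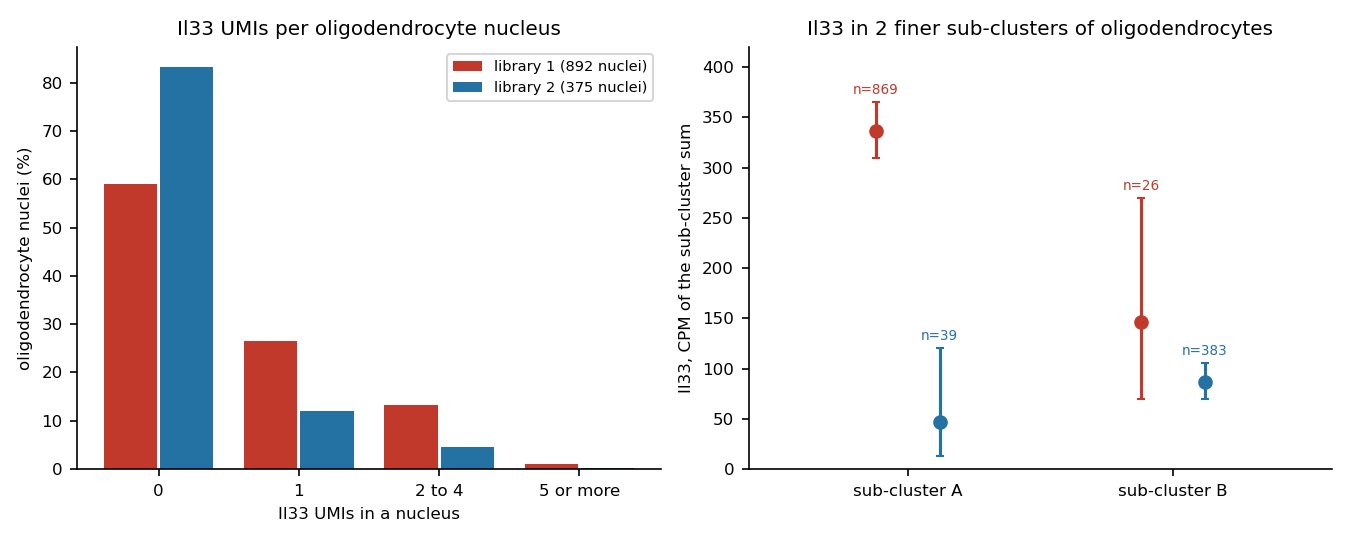
Left, share of oligodendrocyte nuclei (percent) by the number of Il33 UMIs they hold, with library 1 in red (892 nuclei) and library 2 in blue (375 nuclei). Right, Il33 in CPM with exact 95% Poisson intervals in the resolution 2 clusters A and B, with the number of nuclei above each point, where library 1 in A (337 CPM) lies above the other 3 points.

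Il1rl1, which encodes the IL-33 receptor ST2, was close to undetected. It had 9 UMIs in each library over all kept nuclei, no nucleus with more than 1 of them. Excitatory neurons held 7 and 4 of these UMIs, microglia 1 and 2, endothelial cells 0 and 2, inhibitory neurons 1 and 0 and precursors 0 and 1. Oligodendrocytes had none, 0 of 892 and 0 of 375 nuclei, which at a floor of 3 counts allows nuclei with a UMI in up to 0.336% and 0.8%, and at the exact 95% upper limit in up to 0.413% and 0.979%. These limits concern nuclei with a UMI and not nuclei that express the gene. The exact upper limits of the level were 2.11 and 3.87 CPM in oligodendrocytes and 3.15 and 2.85 CPM in astrocytes, which also had no UMI. A receptor in a small number of cells would not be seen at this depth.

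Il1rap, the co-receptor shared by IL-1 and IL-33 receptors, was found in every class, and among the compared classes it was highest in oligodendrocytes. Their 446 CPM (415 to 478) and 436 CPM (396 to 480) overlapped between libraries, unlike Il33 in the same nuclei. A UMI was present in 54.3% and 64.5% of these nuclei, and in 44.5% (41.0 to 48.1) and 47.3% (42.1 to 52.5) after thinning. Precursors came next with 211 CPM (174 to 254) and 252 CPM (212 to 297), then excitatory neurons with 179 CPM (174 to 183) and 163 CPM (159 to 167). In library 1 the precursor and excitatory intervals overlapped. Striatal projection neurons, the main neurons of the striatum, were lowest with 69.6 and 67.1 CPM.

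Among neurons Il1rap varied more than these class means show. The unnamed cluster 6, led by Glis3, Prox1 and Tspan18, had 626 CPM (597 to 658) in library 1 and 780 CPM (746 to 816) in library 2, above oligodendrocytes in both. Prox1 is a transcription factor known from granule neurons of the dentate gyrus, and cluster 6 met too few fixed markers for a name. Within inhibitory neurons, the cluster led by Adarb2 and Vip had 256 CPM (233 to 280) and 330 CPM (301 to 361), while the cluster led by Sst had 45.5 CPM (35.7 to 57.1) and 36.4 CPM (27.3 to 47.6). Vip and somatostatin mark different interneurons, and the gap between their clusters held in both libraries.

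Il1r1, the signalling receptor for IL-1, was highest in endothelial cells, which line the vessels. They had 505 CPM (287 UMIs, 448 to 566) and 405 CPM (433 UMIs, 368 to 445), intervals that were apart by a narrow margin. In the larger endothelial cluster, given below, the libraries overlapped. Fibroblasts had 122 CPM (96.7 to 153) and 41.8 CPM (29.2 to 57.8), and pericytes and smooth muscle 70.3 CPM (11 UMIs) and 30.5 CPM (7 UMIs). Astrocytes stood at 7.69 and 7.71 CPM, oligodendrocytes at 2.28 and 5.25 CPM and microglia at 6.16 and 7.69 CPM, while excitatory and inhibitory neurons held 2.75 to 3.92 CPM. A UMI was seen in 21.4% (15.01 to 28.95) and 21.9% (17.2 to 27.3) of thinned endothelial nuclei against 0.386% and 0.815% of thinned oligodendrocytes. Median depths were 2490 and 2624 UMIs in endothelial nuclei and 1876.5 and 2385 in oligodendrocytes.

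Fibroblast Il1r1 passed 2-fold between libraries, with a ratio of 2.93. In that class 5.4% of 9404 genes were at least 2-fold higher in library 1. The gap rested in part on 1 nucleus of library 1 with 23 Il1r1 UMIs and 32287 UMIs in all, against a class median of 2934. Without it library 1 had 90.9 CPM. In library 1, 76 of the 78 fibroblast UMIs came from cluster 25, led by Ranbp3l and Slc6a20a, and in library 2, 26 of 36. That cluster had 176 CPM (139 to 221) and 55.5 CPM (36.3 to 81.4), whereas cluster 29, led by Bnc2 and Slc47a1, had 9.69 CPM (2 UMIs) and 25.4 CPM (10 UMIs). In cluster 25, 83 of 107 and 99 of 108 nuclei had no Il1r1 UMI. The top 5 nuclei held 67.1% and 84.6% of its UMIs, a spread that the Poisson intervals do not cover. The share of fibroblast nuclei with a UMI was 14.9% (9.94 to 21.01) and 10.1% (6.195 to 15.3), which overlapped. The astrocyte marker list summed to 4597 and 4413 CPM in fibroblasts, above the 833 and 1400 CPM of their own list, with all 6 astrocyte markers detected. What part those cells have in the Il1r1 level was not tested.

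Within the endothelium Il1r1 was uneven. Cluster 19, led by Slco1a4 and Adgrl4, had 550 CPM (488 to 618) and 489 CPM (444 to 538), where the libraries overlapped. Cluster 31, led by Eln and Bmx, had 57.0 CPM (3 UMIs, 11.8 to 167) and 48.8 CPM (10 UMIs, 23.4 to 89.7). It held 18 and 64 nuclei, against 139 and 228 in cluster 19. The part of this make-up in the class difference between libraries was not tested. Eln encodes elastin and Bmx is a kinase of arterial endothelium. In cluster 19, 100 of 139 nuclei of library 1 and 156 of 228 of library 2 had no Il1r1 UMI, while 5 nuclei in each had 20 or more, up to 36 and 34. The top 5 nuclei held 47.2% and 34.5% of the UMIs, a spread between nuclei that the Poisson intervals do not cover.

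The cluster 19 nuclei with at least 5 Il1r1 UMIs (17 in library 1 and 24 in library 2, median depth 3983 UMIs) were summed and set beside those with 0 (100 and 156, median 2457). Genes of vein, capillary and artery endothelium were listed after the spread of Il1r1 had been seen. Of 7 measured vein genes, 5 had intervals apart and higher with Il1r1 and 0 lower, beside 4.84% and 5.57% of 8032 genes. Vwf, which encodes von Willebrand factor, had 750 CPM (651 to 858) against 109 CPM (88.2 to 134). The leukocyte adhesion genes Vcam1 and Icam1 had 226 against 21.1 CPM and 64.6 against 5.87 CPM. Slc38a5, an amino acid transporter, had 118 against 19.96 CPM and Tmem252 89.7 against 28.2 CPM. Ackr1, a chemokine-binding protein of venules, had 14.4 against 22.3 CPM with overlapping intervals, and Selp had 0 UMIs in both sets.

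Of 6 measured artery genes, 0 were higher and 2 lower, Sema3g with 7.17 against 88.1 CPM and Gkn3 with 0 UMIs in 41 nuclei against 28.2 CPM. Of 7 capillary genes, 2 were higher and 1 lower. The lower one was the chemokine Cxcl12, with 172 CPM (127 to 228) against 770 CPM (713 to 832). The higher ones were Slc16a1, 248 against 154 CPM, and the transferrin receptor Tfrc, 334 against 189 CPM. Mfsd2a, a lipid transporter of barrier capillaries, had 89.7 against 113 CPM with overlapping intervals. Gm5127 had the largest ratio, with 983 against 7.05 CPM. Nuclei are not replicates, and the cut at 5 UMIs was set after the counts were seen.

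**Figure D4:**
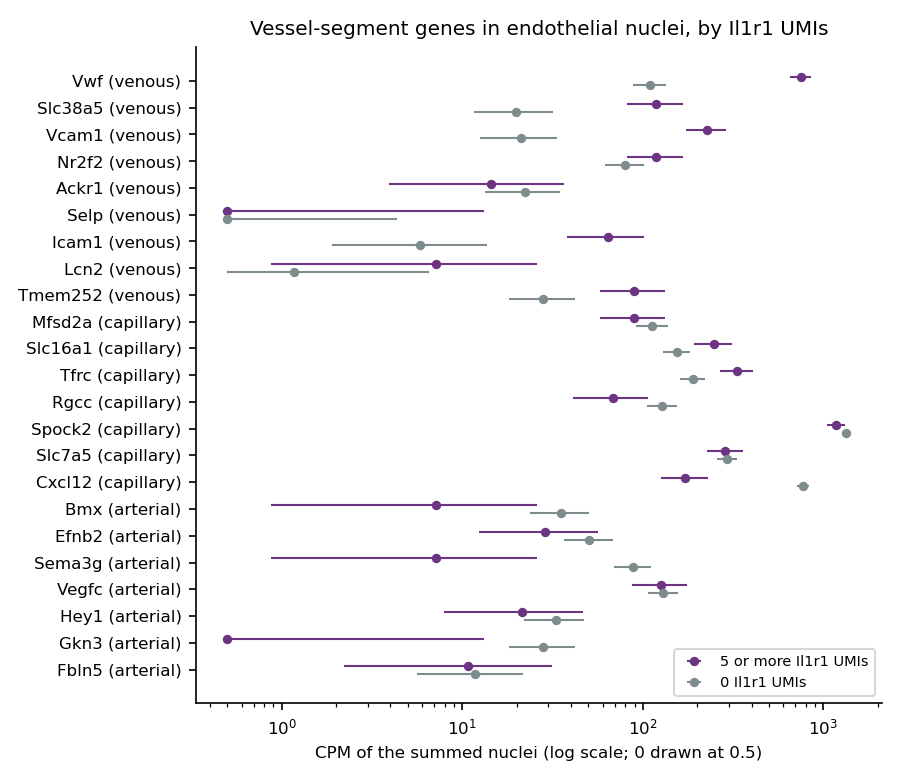
CPM (log scale, 0 drawn at 0.5) of vein, capillary and artery genes in endothelial nuclei of cluster 19 with 5 or more Il1r1 UMIs (41 nuclei, purple) and with 0 (256 nuclei, grey), with exact 95% Poisson intervals. Vwf, Vcam1, Icam1 and Slc38a5 are higher and Cxcl12, Sema3g and Gkn3 lower in the nuclei with Il1r1.

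Outside the vessel wall cluster 6 was the neuron cluster with most Il1r1, at 49.9 CPM (131 UMIs, 41.7 to 59.2) and 57.4 CPM (142 UMIs, 48.4 to 67.7). The other neuron clusters of at least 50 nuclei had 0.994 to 11.7 CPM. Cluster 6 was thus the neuron cluster highest for both the receptor Il1r1 and its co-receptor Il1rap. In library 1, 268 of its 355 nuclei held no Il1r1 UMI, and in library 2, 138 of 207.

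Il18 was highest in astrocytes, at 176 CPM (153 to 202) and 152 CPM (131 to 175), which overlapped between libraries. Oligodendrocytes had 109 CPM (93.6 to 125) and 89.2 CPM (71.2 to 110), below astrocytes in each library and overlapping each other. Fibroblasts had 75.3 and 67.3 CPM, precursors 66.0 and 64.8 CPM and microglia 34.9 CPM (20.3 to 55.9) and 53.9 CPM (35.8 to 77.8). From oligodendrocytes down to precursors, each class overlapped the next. Excitatory neurons had 6.73 and 5.00 CPM, and 1.13% and 1.1% of them held a UMI after thinning, against 23.4% (19.4 to 27.7) and 18.9% (15.3 to 22.9) of astrocytes. Astrocytes and oligodendrocytes therefore had the highest values for both cytokine genes, in opposite order, although the class ranked second overlapped fibroblasts for Il18 in both libraries and for Il33 in library 1. In striatal projection neurons Il18 passed 2-fold with 14.1 CPM (39 UMIs, 9.997 to 19.2) against 6.10 CPM (10 UMIs, 2.92 to 11.2). Il33 passed it there too, with 7.57 CPM (21 UMIs, 4.69 to 11.6) against 2.44 CPM (4 UMIs, 0.665 to 6.245). For both genes the intervals of the libraries overlapped. The striatal Il33 intervals also overlapped those of excitatory neurons in each library. Among striatal projection neurons 8.6% of 10587 genes were 2-fold higher in library 1.

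Il1rapl1 UMIs were abundant in every class. Among the compared classes the level was highest in oligodendrocyte precursors, the dividing cells that give rise to oligodendrocytes. Precursors had 3721 CPM (3558 to 3889) and 3693 CPM (3535 to 3856), and 132 of 132 and 155 of 156 of their nuclei held a UMI. Oligodendrocytes had 1597 CPM (1538 to 1657) and 1776 CPM (1692 to 1863). Striatal, inhibitory and excitatory neurons had 2602 to 3130 CPM, and endothelial cells and fibroblasts 798 to 963 CPM. The excitatory neuron markers summed to 2958 and 3118 CPM in excitatory neurons, 1228 and 1206 CPM in oligodendrocytes and 1257 and 1096 CPM in precursors. Microglia had 1725 and 1512 CPM of these markers, endothelial cells 912 and 890 CPM and fibroblasts 816 and 701 CPM. The part of neuronal RNA in the Il1rapl1 levels of glial, endothelial and fibroblast nuclei was not tested. Excitatory neurons had 2602 CPM in library 1 and 3015 CPM in library 2, and inhibitory neurons 2657 and 3017 CPM, both with intervals apart and under 2-fold.

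Neuron clusters differed in Il1rapl1. Cluster 2, led by Gm48530, Igfn1 and Cux2, a transcription factor of upper cortical layers, had 4024 CPM (3977 to 4071) and 4836 CPM (4785 to 4888). This was above the precursor class in both libraries. Cluster 9, led by Gm2115 and Shisa6, had 1172 and 1268 CPM. The inhibitory cluster 18, led by Btbd11 and Erbb4, had 3793 CPM (3715 to 3872) and 4444 CPM (4345 to 4543), against 1877 and 2024 CPM in the Sst cluster. Cluster 18 overlapped precursors in library 1 and stood above them in library 2. Nearly every nucleus contributed, since 636 of 804 and 674 of 758 nuclei of cluster 2 held 20 or more UMIs.

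Il1rapl2 had another pattern, highest in inhibitory neurons with 962 CPM (937 to 988) and 798 CPM (772 to 824). Excitatory neurons had 363 and 440 CPM and striatal projection neurons 357 and 365 CPM. Within the inhibitory class cluster 18 had 1815 CPM (1761 to 1870) and 1469 CPM (1412 to 1526), the Sst cluster 666 and 588 CPM and the Vip cluster 124 and 197 CPM. Among excitatory clusters, cluster 1, led by Hs3st2, had 1159 and 1443 CPM, overlapping cluster 18 in library 2, and the Cux2 cluster 44.0 and 51.5 CPM. Cluster 2 was therefore the excitatory cluster with the most Il1rapl1 and the least Il1rapl2 in both libraries. The unnamed neuron clusters 21 and 11 had 892 and 892 CPM and 649 and 926 CPM.

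**Figure D5:**
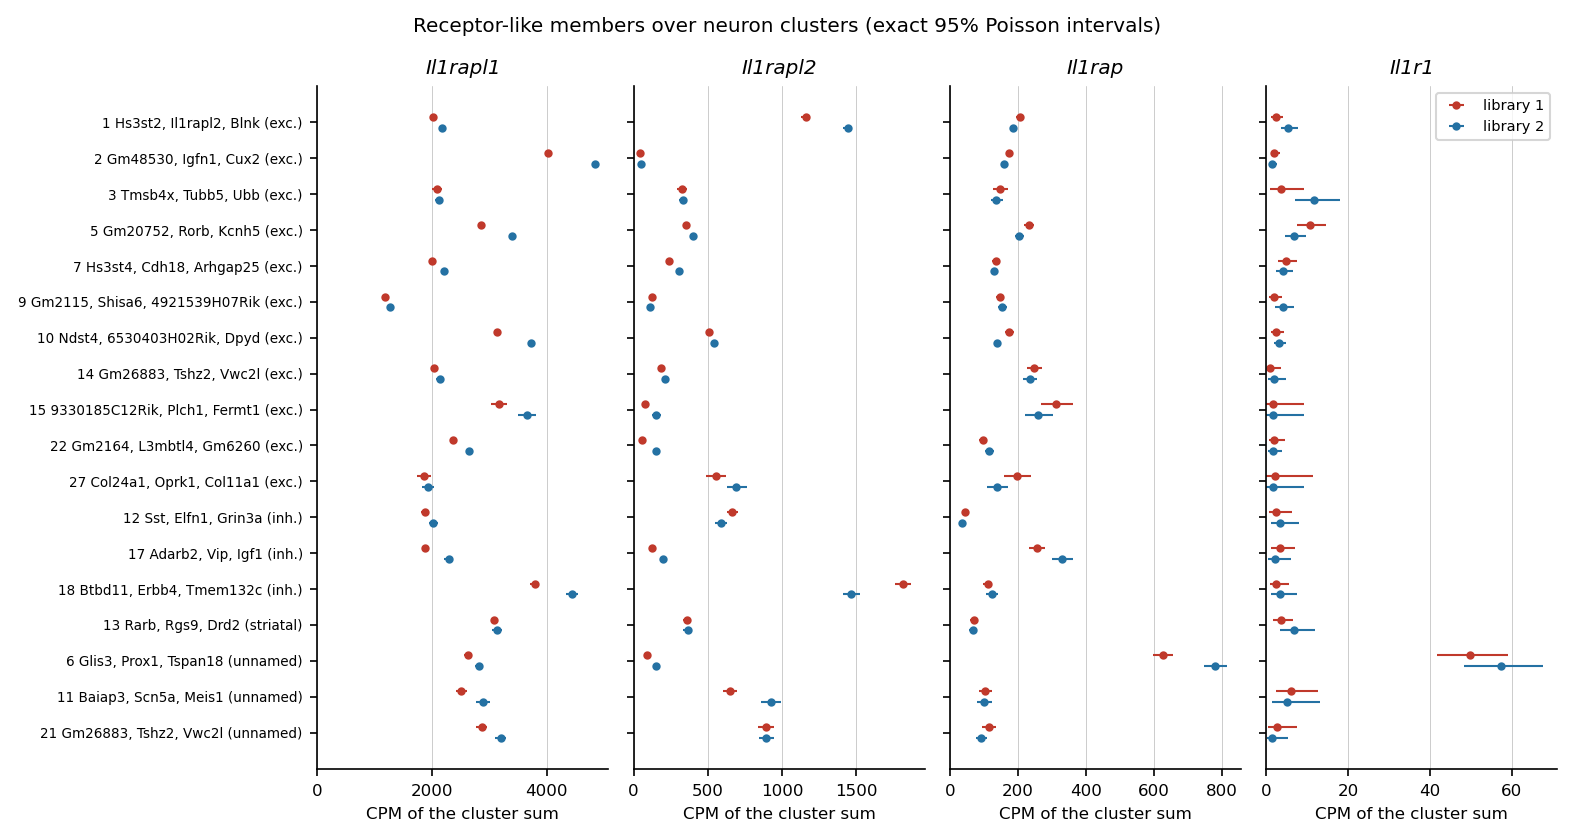
CPM of Il1rapl1, Il1rapl2, Il1rap and Il1r1 (linear axes, a scale of its own for each gene) in neuron clusters of at least 50 nuclei, named by number and leading genes, with library 1 in red and library 2 in blue and exact 95% Poisson intervals. Cluster 18 is highest for Il1rapl2 in both libraries, cluster 2 for Il1rapl1, and cluster 6 for Il1rap and Il1r1.

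Cluster 18 was not uniform for Il1rapl2. Of its nuclei 91 of 271 and 78 of 222 had no UMI, while 81 and 53 had 20 or more, with up to 115 and 81. The 134 nuclei with 20 or more had a median depth of 8439 UMIs and the 244 with at most 1 had 7584. Of 10 measured interneuron genes listed after this spread was seen, 2 were higher with Il1rapl2 and 3 lower, beside 2.95% and 2.99% of 9954 genes. Pthlh had 20.1 against 6.18 CPM and Reln 82.8 against 49.4 CPM, while the potassium channel gene Kcnc2 had 2482 against 4638 CPM, Sst 28.9 against 93.1 CPM and Tac1 38.6 against 66.9 CPM. Pvalb, the marker of fast-spiking basket cells, had 50.6 CPM (38.9 to 64.8) against 35.0 CPM (27.2 to 44.4), which overlapped. The largest ratios were those of Egfr (96.4 against 8.23 CPM) and Col25a1 (321 against 46.3 CPM).

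Microglial Il1rapl2 was 335 CPM in library 1 and 223 CPM in library 2. A single nucleus of library 1 held 83 of the 163 UMIs and had 23507 UMIs in all against a class median of 1689.5, and without it library 1 had 173 CPM. In library 2 the UMIs were spread over 70 of 212 nuclei, with at most 16 in 1 nucleus.

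Across the 7 members and 10 classes, 50 of 70 pairs had the 20 UMIs needed for a ratio, 4 of them at least 2-fold higher in library 1 and 0 in library 2. They were Il33 and Il18 in striatal projection neurons, Il1r1 in fibroblasts and the chosen Il33 in oligodendrocytes. The intervals of the striatal pairs overlapped between libraries. The background of genes 2-fold higher in library 1 and in library 2 differed by class. It was 4.93% and 3.91% in astrocytes, 5.5% and 3.46% in precursors, 4.85% and 4.16% in microglia, and 6.08% and 4.19% in endothelial cells. In pericytes and smooth muscle it was 5.53% and 4.33%, and in fibroblasts 5.4% and 3.74%. Neurons had 6.2% and 11% (excitatory), 6.82% and 6.22% (inhibitory) and 8.6% and 3.97% (striatal). The members' share in library 1, which includes the pair that the choice fixed, is close to these values.

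The other genes of the pathway were taken as lists of ligands, receptors, processing and signalling genes, with at least 20 UMIs over the compared classes counted as measured. Of 10 ligands and antagonists 3 were measured. Il1a had its highest level in microglia, with 14.4 CPM (7 UMIs, 5.78 to 29.6) and 36.6 CPM (19 UMIs, 22 to 57.1). It was past 2-fold higher in library 2 in microglia, as were 4.16% of 7636 genes there, but its intervals overlapped. Il1b had 6 UMIs over these classes and Il1rn, the receptor antagonist, none. The symbols Il36a, Il36b, Il36g and Il36rn of the IL-36 branch matched no row in the matrix analysed here. Whether these 4 genes are listed under other names was not checked.

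Of 10 receptors 7 were measured, 4 of them members. Il1rl2, the IL-36 receptor, was highest in microglia (28.8 and 50.01 CPM). Sigirr, an inhibitory receptor, was highest in endothelial cells, with 28.1 CPM (16 UMIs, 16.1 to 45.7) and 11.2 CPM (12 UMIs, 5.80 to 19.6). It was past 2-fold in library 1, as were 6.08% of 9429 genes, but its intervals overlapped. Il1r2, a decoy receptor, reached only 3.77 CPM (2 UMIs) and 9.002 CPM (5 UMIs), in precursors. These values overlapped inhibitory neurons, with 2.06 CPM (12 UMIs) and 8.37 CPM (39 UMIs). Il1r2 was past 2-fold higher in library 2 in both excitatory and inhibitory neurons, as were 11% and 6.22% of genes there. The IL-18 receptor genes Il18r1 and Il18rap had 12 and 7 UMIs and were not counted as measured, and Il18bp, which binds IL-18, stayed below 9 CPM in every class.

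Of 10 processing genes, which build inflammasomes and cleave the cytokines, 9 were measured, and 7 of them had their highest level in microglia in each library, 6 in both. Over 18475 genes, 13.5% and 15.8% were highest in microglia, and the share highest there in both libraries was not counted. Casp1, 1 of the 6, had only 2.05 and 1.92 CPM in microglia, the level of 1 UMI in each library. Nlrp1b had 101 and 102 CPM there, Aim2, a sensor of cytosolic DNA, 69.8 and 106 CPM, and Casp8 65.7 and 50.01 CPM. Aim2 was past 2-fold higher in library 2 in 4 of the 6 classes in which it was tested. So were 11% of genes in excitatory, 6.22% in inhibitory and 3.97% in striatal projection neurons and 3.25% in oligodendrocytes, the same 4 classes. In oligodendrocytes Aim2 had 9.14 CPM (5.22 to 14.8) and 53.5 CPM (39.8 to 70.4).

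Of 20 signalling genes 19 were measured, and Myd88 is listed at 0 over the compared classes. Endothelial cells were highest for 10 of the 19 in library 1 and 4 in library 2, 2 of them in both, beside 15.1% and 11.9% of all genes. The share of all genes highest in endothelial cells in both libraries was not counted. Nfkbia, the inhibitor that NF-kappaB itself induces, was highest there with 215 CPM (178 to 256) and 144 CPM (122 to 169). Irak2 was highest in astrocytes with 348 CPM (315 to 383) and 181 CPM (159 to 206), and Mapk14 in microglia with 244 and 185 CPM. In oligodendrocytes 3 of 17 tested signalling genes were past 2-fold higher in library 1 and 0 in library 2, beside 6.61% and 3.25% of all genes in this class. The median log2 ratio over the list was 0.29 beside 0.17 for all genes. The 3 were Irak1 with 35.4 against 11.5 CPM, Nfkbia with 26.3 against 9.44 CPM and Rela, an NF-kappaB subunit, with 13.1 against 6.30 CPM (23 and 6 UMIs), past 2-fold by less than the shift of the median gene. Irak1 was past 2-fold higher in library 1 in 4 of 9 classes tested: astrocytes, endothelial cells, oligodendrocytes and striatal projection neurons. There 4.93%, 6.08%, 6.61% and 8.6% of all genes were, in the same order. How many of all genes pass 2-fold in as many classes as Irak1 or Aim2 was not counted.

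All 8 synaptic partner genes were measured. Ptprd, the phosphatase that binds IL1RAPL1, was highest in excitatory neurons with 10282 and 12639 CPM. Oligodendrocytes had 6617 and 7795 CPM and microglia 4967 and 5084 CPM. The part of neuronal RNA in the Ptprd levels of these glial classes was not tested. Ptprs was highest in excitatory neurons too, with 412 and 243 CPM, and Mcf2l in endothelial cells with 418 and 332 CPM.

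The genes whose pattern was most like each member were taken over 28 clusters of at least 50 nuclei, by Pearson correlation of log2(CPM + 1). The clusters share libraries and depth, so these are descriptions. For Il33 they were 9330111N05Rik (0.89), Cdh19 (0.87) and Pla2g16 (0.87), and for Il18 Epc1 (0.87), Cdh19 (0.86) and Rbl2 (0.84). For Il1r1 they were Sp3 (0.87), Apcdd1 (0.87) and Tmem204 (0.86). For Il1rapl1 they were Myo5a (0.84), Dock3 (0.82) and Tmem132b (0.82), and for Il1rapl2 Olfm3 (0.72), Cntnap4 (0.68) and Chga (0.68). Il1rap had the loosest partners, Gm28376 (0.62), Atg7 (0.61) and Slc16a7 (0.59).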

How the data were processed

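Both pooled samples were deposited as 1 matrix of raw UMI counts per gene and barcode, made with Cell Ranger 3.1.0 per the file headers, whereas the submitters' processing notes name Cell Ranger 2.0.1, Seurat 3.1, R 4.0.2 and mm10. The annotation, the handling of introns and strand and the cell calling are not stated in any header or label used. Nuclei with at least 200 genes, at most 5% mitochondrial UMIs and a Scrublet score under 0.2 were kept. Scrublet's automatic threshold marked 0 and 2 barcodes and had not worked, so this limit, set after the scores were seen, left out 305 and 332.

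Counts were scaled to 10000, log-transformed and clustered in scanpy 1.11.5 (2000 variable genes without members and list genes, 30 components, 15 neighbours, Leiden resolution 1). A cluster took the class with the highest mean marker level relative to the top cluster, with at least 3 markers at 0.25 of it, a mean of 0.33 and a lead of 1.2. It stayed unnamed where its median UMIs were under 1 in 3 of those of its library in each library and no own marker was among its top 10 genes. These thresholds were set after the clusters were seen, and several were tried. The names of oligodendrocytes, of fibroblast clusters 25 and 29 and of the low-UMI excitatory cluster 3 (530 and 713 nuclei) depended on them. The leading genes of the oligodendrocyte cluster held none of its 6 markers.

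UMIs were summed by class and library and given as CPM. A ratio of 2 over genes with at least 20 UMIs stands in for a test. The genes named are the members, the 3 most alike of each (members with at least 200 UMIs, among genes with at least 500), and the 3 highest genes of each list; others named were chosen after their values were seen. The members and lists were chosen with earlier results of these data known. The calculations were tested on simulated counts. Alternatives were doublets kept, a score limit of 0.15, no mitochondrial limit, 500 genes, resolution 2, equal weight per nucleus, thinning to 1500 UMIs, no UMI minimum and centring, and 4 added after the data were seen.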

Additional observations from a re-analysis of the deposited data

How the results depend on the processing

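No paired analysis was possible because the result comes from no test and no label ties a library to a sample. The Il33 level in oligodendrocytes kept its order between libraries in every alternative run. The ratio was 3.43 (interval 2.75 to 4.32) and ran from 3.05 to 3.95, apart from Leiden resolution 2, where only cluster B, with 24 of 26 and 333 of 383 nuclei from the class, kept the name oligodendrocytes and the ratio was 1.70, with Il33 at 146 and Il1rap at 337 CPM in library 1 and 1160 genes higher in library 2, with fewer nuclei. Il1r1 in endothelial cells of library 1 was 603 CPM there. With doublets kept, Il1r1 in endothelial cells was 437 and 348 CPM, Il18 in astrocytes 146 and 117 CPM and Il1rapl1 in precursors of library 2 3488 CPM. With equal weight per nucleus, Il1r1 in endothelial cells of library 2 was 320 CPM and Il1rapl2 in inhibitory neurons of library 1 907 CPM, and after thinning they were 362 and 874 CPM. Without the UMI minimum, 1308 and 1330 genes were 2-fold higher in library 1 and 2, and centring gave 446 and 465, so the excess toward library 1 depended on both choices. Of 870 other member levels under these settings, 775 stayed within their interval, 46 moved up and 49 down. Microglia with doublets kept and precursors with a score limit of 0.15 had no named cluster. A minimum of 500 genes removed no nucleus. Among alternatives chosen after seeing the data, clusters A and B together gave an Il33 ratio of 3.95, and leaving out 1 nucleus lowered fibroblast Il1r1 and microglial Il1rapl2 in library 1, as given above. The depth limits Il1rl1 most, with 18 UMIs in all.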
